A study of Arabidopsis thaliana with 6 samples.

Results

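Arabidopsis carries several large families of genes for small secreted peptides. These genes were picked out by name: a row of the array had to name exactly 1 gene, and the symbol had to begin with LCR (low-molecular-weight cysteine-rich), SCRL (SCR-like), RALFL (RALF-like) or PDF, followed by a number. This gave 103 of the 16550 genes that the array names, made up of 63 LCR, 12 SCRL, 18 RALFL and 10 PDF genes. Each of the 103 had a single row, so no choice between rows was needed. Current RefSeq annotation lists 154 genes with such symbols. The 51 without a row naming them alone were not analysed here, and rows naming several genes were not searched for them. Coverage was uneven, with 63 of 81 LCR, 12 of 28 SCRL, 18 of 32 RALFL and 10 of 13 PDF genes measured. Family values below are those of the measured members only.

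The samples were dark-grown Arabidopsis suspension cells, labelled as the culture Alex, and all of them carried the same estrogen-inducible fusion of ATHB8 with green fluorescent protein. ATHB8 is a homeodomain leucine zipper transcription factor known from the precursor cells of vascular tissue. The 3 induced arrays came from cells given estrogen at 5 µM during 24 h. The 3 uninduced arrays came from cells of the same genotype that received no estrogen in that time. The study asked which genes act downstream of ATHB8. No line without the fusion was analysed here, so the effect of estrogen alone and that of ATHB8 cannot be told apart, and the labels do not say whether the culture is 1 clone.

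Most of these peptides are made as precursors with a signal peptide, are exported to the cell wall and are held in shape by disulfide bridges between their cysteines. RALF peptides (rapid alkalinization factors) raise the pH of the wall and bind FERONIA and related receptor kinases. Plant defensins, which include the PDF and several LCR genes, act against fungi, and PDF1.2 is the usual marker of the jasmonate and ethylene branch of defence. The SCRL genes are named for SCR, the pollen ligand of self-incompatibility in Brassica, and many LCR and SCRL genes are known from flowers and seeds rather than from vegetative cells.

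In the induced as in the uninduced cells, most of these genes lay among the lowest signals of the array, and a few stood far above the rest. A level is given here as a log2 signal and as its percentile among the uninduced means of all 38408 rows, because probe sets differ in how strongly they bind and signals of different genes are not amounts of RNA. Of the 103 genes 80 lay below the 25th percentile of all rows, 17 between it and the median, and 6 at or above the median. That is 77.7% below the 25th percentile, against 28.7% of all named genes. No background level was analysed here, so a low signal was not shown to lie above background. Rows of 4 pollen genes, VGD1, VGDH1, PPME1 and MGH3, gave uninduced means of 2.48 to 4.71. In bulk samples such as these, fewer cells that express a gene and less RNA per cell cannot be told apart.

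By the uninduced median of the measured members, the LCR genes lay lowest and the RALFL genes highest. The family medians were 2.53 for LCR (percentile 7.65), 2.68 for SCRL (9.47), 3.02 for PDF (14.01) and 3.30 for RALFL (17.8), against 5.55 (46.8) over all named genes. This order holds over all members: without genes of equal replicate 1 values SCRL (2.56) lay below LCR (2.58). Among rows at or above the 25th percentile SCRL (7.89, 2 genes left) and PDF (5.99, 3 left) lay above RALFL (5.38, 7 left). This filter uses the mean over all 6 arrays, which includes the uninduced level that is compared. The PDF value there is that of PDF1A, a peptide deformylase and not a secreted peptide, while the PDF defensin left, PDF1.2b, had 4.28. Over all members the induced medians had the order of the uninduced ones, at 2.49, 2.75, 3.06 and 3.27. These medians lay close together beside the ranges within families: LCR genes spanned 1.49 to 5.69, SCRL genes 1.68 to 10.7, PDF genes 1.997 to 7.19 and RALFL genes 1.62 to 7.71. Below the 25th percentile lay 52 of 63 LCR genes, 10 of 12 SCRL genes, 7 of 10 PDF genes and 11 of 18 RALFL genes. At or above the median of all rows were 3 RALFL genes, 2 PDF genes and 1 SCRL gene, and 0 LCR genes.

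**Figure D1:**
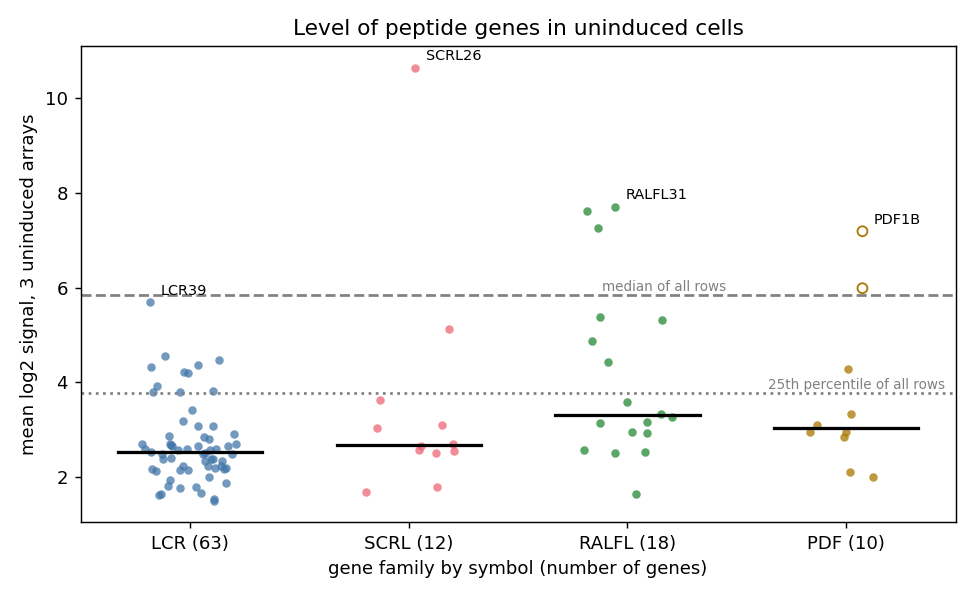
Mean log2 signal over the 3 uninduced arrays for each of the 103 genes, by family, with 1 point per gene, a black bar at the family median, and grey lines at the 25th percentile and the median of all rows. SCRL26 at 10.7 stands apart from the other SCRL genes, and 3 RALFL genes lie above 7; open circles mark the 2 peptide deformylase genes, which only share the letters PDF.

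The letters PDF cover 2 kinds of gene here. PDF1A (AT1G15390) and PDF1B (AT5G14660) are annotated as peptide deformylases and are not secreted peptides. Such enzymes remove the formyl group from the first residue of proteins made in organelles. They had the highest levels of the 10 PDF genes, with uninduced means of 5.99 and 7.19, and their differences were -0.04 and -0.05 on the log2 scale. Without them the remaining 8 PDF genes, all plant defensins by symbol, had an uninduced median of 2.94 (percentile 12.9), and 7 of the 8 lay below the 25th percentile. Conversely, 5 LCR genes, LCR66, LCR67, LCR68, LCR69 and LCR72, carry a plant defensin name as a synonym. With these 5 the defensins numbered 13, with an uninduced median of 2.68 and 12 of 13 below the 25th percentile.

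On the induced arrays no member passed the test, in any of the 4 families. In the limma fit over all 38408 rows, 0 of the 103 genes had an adjusted p under 0.05, where 0.961% of all rows and 1.13% of named genes did. At an unadjusted p under 0.05, 4 members lay lower and 0 higher in the induced cells. The 4 are 3.88% of the members, near the 4.71% of all named genes that lay lower by this measure, and 4.01% of named genes lay higher. Among the 80 members below the 25th percentile, 1 (1.25%) had an unadjusted p under 0.05, against 2.34% of named genes in that range. Both shares take the 2 directions together. The 1 member, LCR83, lay lower, while of the 4750 named genes in that range 31 lay lower and 80 higher. At or above the 25th percentile 3 of 23 members lay lower and 0 higher by this measure. The share of named genes there was not computed, so the 3.88% is not matched for signal. A p that misses the threshold does not show that a gene did not differ.

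As families the peptide genes lay close to no difference. The median of induced minus uninduced was 0.00 on the log2 scale for LCR, -0.01 for SCRL, 0.03 for RALFL and -0.06 for PDF, against -0.01 over all named genes. Many members had equal values in replicate 1, described below. In replicates 2 and 3 alone the medians were -0.01 for LCR, -0.01 for SCRL, 0.07 for RALFL and -0.10 for PDF. Of the LCR genes 32 lay higher and 31 lower, of the SCRL genes 5 higher and 7 lower, of the RALFL genes 11 higher and 7 lower, and of the PDF genes 2 higher and 8 lower. The differences of single members ran from -0.99 to 0.38, and those of SCRL26, RALFL34 and LCR38 were larger than 0.5 in size. The median standard error of a member's difference was 0.19, against 0.16 over all named genes. Below the 25th percentile it was 0.21 for members and 0.20 for named genes.

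**Figure D2:**
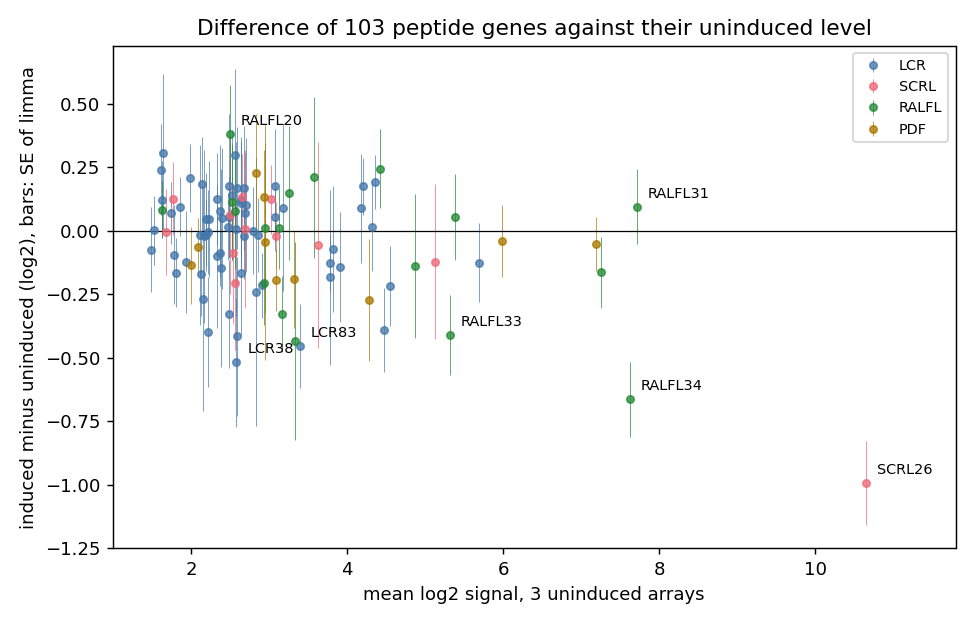
Induced minus uninduced difference (log2) of the 103 genes against their mean log2 signal on the uninduced arrays, with bars of 1 standard error from limma and colours by family. SCRL26 at -0.99 and RALFL34 at -0.66 lie low among the genes of higher signal, while the genes of low signal scatter on both sides of 0.

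SCRL26 (AT4G22105) was the member with the highest level and the largest difference. It encodes a SCR-like peptide, and no function is assigned to it here. Its log2 signal was 9.64, 9.58 and 9.76 on the induced arrays 1, 2 and 3, against 10.45, 10.53 and 10.98 on the uninduced arrays 1, 2 and 3. All induced values lay below all uninduced ones, and the gap between the groups, from 9.76 to 10.45, was wider than the spread within either. The means were 9.66 ± 0.09 in induced and 10.65 ± 0.28 in uninduced cells (SD, n = 3 each), a difference of -0.99 ± 0.17 on the log2 scale (SE; 95% interval -1.40 to -0.59), which puts the induced signal at 0.502 of the uninduced one. In limma the unadjusted p was 8.33e-04 and the adjusted p over all rows 0.0646, just short of the threshold.

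SCRL26 stood at percentile 94.6 of all rows, with 601 of 16550 named genes above it. AUR1, a kinase gene of dividing cells, lay lower on the same arrays, with 10.96, 10.88 and 10.94 in induced cells, against 11.38, 11.36 and 11.28 in uninduced cells, so its groups did not overlap either. Its difference was -0.42 ± 0.10 (SE; limma unadjusted p = 0.00511, adjusted p = 0.175), and its part in the differences of SCRL26 and RALFL34 was not tested. The next SCRL gene, SCRL20, lay 5.53 log2 units below. Of the named genes 50 had a more negative difference. RefSeq places SCRL26 between BGLU3 and AT4G22110 and shows no gene overlapping it. AT4G22110, the neighbour with a named row, had means of 2.51 in induced and 2.72 in uninduced cells, and a difference of -0.20 ± 0.17 (SE, adjusted p = 1.0).

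The call of SCRL26 depended on which rows entered the fit and how the spread was modelled. It passed among rows at or above the 25th percentile of signal (adjusted p = 0.0367) or the median (0.0171), with a variance prior that follows the signal (0.0181), over rows that name 1 gene (0.0320), over distinct rows (0.0422) and with a block that sets replicate 1 apart (0.0475). It did not pass with the replicate number as a block (0.0708), with quantile normalization (0.0811) or median subtraction (0.0864), in replicates 2 and 3 alone (0.164), or without any 1 array (0.104 to 0.296), and its difference stayed between -1.10 and -0.83 in all of these.

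The other 11 SCRL genes differed by less than SCRL26. SCRL20 (AT4G10115) gave 4.64, 4.95 and 5.40 in induced cells, against 4.55, 5.36 and 5.45 in uninduced cells, so that the groups overlapped over most of their range. Its difference was -0.12 ± 0.30 (SE, adjusted p = 1.0). SCRL16 (AT2G06983) gave 2.91, 3.88 and 3.92 in induced cells, against 2.91, 4.07 and 3.90 in uninduced cells. In both genes the replicate 1 arrays were the lowest of each group. The remaining 9 SCRL genes lay below the 25th percentile of all rows, down to SCRL27 with an uninduced mean of 1.68, and the named ones, SCRL22, SCRL24 and SCRL25, differed by 0.13, 0.13 and 0.12.

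Among the RALFL genes, RALFL34, RALFL31 and RALFL22 had the highest levels, and of these RALFL34 lay lower in the induced cells. RALF34 is known from the founder cells of lateral roots and as a ligand of the receptor kinase THESEUS1. RALFL34 (AT5G67070) gave 7.08, 6.93 and 6.88 on the induced arrays 1, 2 and 3, against 7.88, 7.52 and 7.47 on the uninduced arrays 1, 2 and 3. The groups did not overlap, and each induced array lay below its same-numbered partner by 0.59 or more. The means were 6.96 ± 0.11 and 7.63 ± 0.22 in induced and uninduced cells (SD, n = 3 each), a difference of -0.66 ± 0.15 (SE; 95% interval -1.02 to -0.31) or 0.631 of the uninduced signal. The limma adjusted p was 0.150 and the unadjusted p 0.00379, and 230 of 16550 named genes had a more negative difference. It passed over rows at or above the median (adjusted p = 0.0449) and with the block that sets replicate 1 apart (0.0288), and in no other fit that was run (0.0765 to 0.490).

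RALFL31 and RALFL22, also above the median of all rows, differed by less. RALFL31 (AT4G13950) gave 7.90, 7.70 and 7.82 in induced cells, against 7.90, 7.79 and 7.46 in uninduced cells, and its difference was 0.09 ± 0.15 (SE; 95% interval -0.27 to 0.45; limma adjusted p = 1.0). RALFL22 (AT3G05490) gave 7.01, 7.27 and 6.97 in induced cells, against 7.29, 7.39 and 7.07 in uninduced cells, and its difference was -0.16 ± 0.14 (95% interval -0.50 to 0.18; limma adjusted p = 1.0). In both genes the groups overlapped. The intervals of RALFL34 and RALFL22 overlap, and the difference between the genes was not tested.

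RALFL33, a close relative of RALFL22 whose peptide is known to act through FERONIA, lay lower on the induced arrays by a narrow margin. RALFL33 (AT4G15800) gave 5.05, 4.88 and 4.78 in induced cells, against 5.37, 5.53 and 5.05 in uninduced cells. The highest induced value, 5.049, was just below the lowest uninduced one, 5.054. Its difference was -0.41 ± 0.16 (SE; unadjusted p = 0.0393, limma adjusted p = 0.524), at percentile 44.3 of all rows. In RefSeq RALFL33 overlaps the non-coding gene AT4G06335. Probe positions were not checked, so the signal may hold RNA of both. The neighbour AT4G15790, which does not overlap RALFL33, differed by -0.42 ± 0.11 (SE; limma unadjusted p = 0.00803, adjusted p = 0.227). A link between these neighbours was not tested. RALFL29 and RALFL20, both at low level, differed by -0.33 ± 0.15 (adjusted p = 0.663) and 0.38 ± 0.19 (0.760). With the replicate number as a block the unadjusted p of RALFL29 in limma was 0.0335, against 0.0665 without it. RALFL20 had the highest positive difference of any member, from means of 2.88 in induced and 2.50 in uninduced cells, and its groups overlapped. The lowest RALFL gene was RALFL30, with means of 1.71 in induced and 1.62 in uninduced cells.

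**Figure D3:**
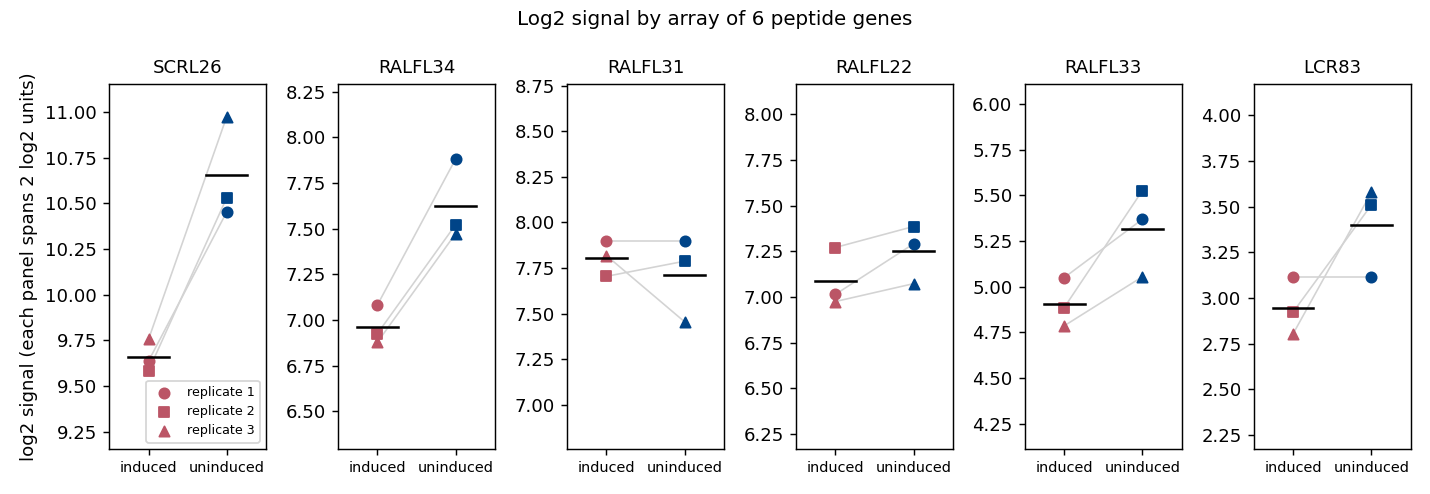
Log2 signal on each of the 6 arrays for SCRL26, RALFL34, RALFL31, RALFL22, RALFL33 and LCR83, with induced arrays at the left and uninduced arrays at the right of each panel; marker shapes give the replicate number, grey lines join same-numbered arrays, black bars are group means, and every panel spans 2 log2 units. The groups lie apart in SCRL26, RALFL34 and, narrowly, RALFL33, and LCR83 has equal values in replicate 1.

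In the LCR family no gene reached the median of all rows. LCR39 (AT3G23167) had the highest level, with 5.74, 5.34 and 5.60 in induced cells, against 5.74, 5.83 and 5.49 in uninduced cells, followed by LCR40 and LCR56 with uninduced means of 4.55 and 4.48. LCR83 (AT5G54225) had the smallest p of the family, with 3.11, 2.92 and 2.80 in induced cells, against 3.11, 3.51 and 3.58 in uninduced cells. In LCR83 the replicate 1 arrays were equal and the other 2 pairs carried the whole difference of -0.45 ± 0.17 (SE; limma unadjusted p = 0.0325, adjusted p = 0.474). With the replicate number as a block its unadjusted p in limma was 0.0697. LCR56 likewise had equal values of 4.38 in replicate 1, and differed by -0.39 ± 0.17 (adjusted p = 0.610). LCR38, also with equal values in replicate 1, had the most negative difference of the family, -0.52 ± 0.25 (0.735). LCR53 differed by -0.40 ± 0.22 (0.805). Each rested much on 1 array: the difference of LCR38 was -0.28 without induced replicate 2, and that of LCR53 -0.20 without uninduced replicate 3. LCR27, with an uninduced mean of 1.49, was the lowest of all 103 genes.

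Groups that did not overlap were no more frequent among these genes than elsewhere. All 3 induced arrays lay below all 3 uninduced ones in SCRL26, RALFL34 and RALFL33, which is 2.91% of the members against 6.99% of named genes. All 3 induced arrays lay above in LCR37 and LCR46 (1.94%, against 5.95%). These last 2 genes, chosen after their values were seen, had differences of 0.19 and 0.17 and limma adjusted p of 0.824 and 0.916. Genes with equal values in the replicate 1 arrays cannot count as apart in either direction. These shares are not matched for signal, and groups that lay apart were rare at low signal. Below the 25th percentile 0 of 80 members had groups apart in either direction. Of the 4750 named genes in that range 33 lay apart below and 86 above. At or above it 3 of 23 members lay apart below and 2 above, and the share of named genes there was not computed.

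The defensins of the jasmonate and ethylene branch lay low in both groups. PDF1.2 (AT5G44420), chosen after its values were seen, gave 2.08, 1.97 and 2.04 in induced cells, against 2.01, 2.25 and 2.01 in uninduced cells. Its near copy PDF1.2c gave 2.06, 1.66 and 1.86 in induced cells, against 1.94, 1.87 and 2.18 in uninduced cells, the lowest mean of the PDF genes. PDF1.2b (AT2G26020), a further near copy, had the highest level of the PDF defensins, with 4.40, 3.56 and 4.06 in induced cells, against 4.31, 4.49 and 4.04 in uninduced cells. Its difference was -0.27 ± 0.24 (SE, limma adjusted p = 1.0), with overlapping groups. Copies so alike can bind to each other's probes, so which of them a signal belongs to is uncertain. PDF1.5, PDF2.5 and PDF1.3 differed by -0.19, -0.19 and 0.23, with adjusted p of 0.908, 1.0 and 1.0.

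In the RefSeq gene order 31 of the 103 genes stood next to another member with no other protein-coding gene between them, in 11 runs of 2 to 7 genes. The longest run was LCR23, LCR22, LCR21, LCR24, LCR26, LCR27 and LCR25, with uninduced means from 1.49 to 3.79. A run of 4, PDF2.1, LCR68, LCR72 and LCR73, spanned 2.65 to 4.32. Neighbours could differ widely: LCR42 and LCR39, side by side, had uninduced means of 1.78 and 5.69, and the pair LCR56 and LCR55 had 4.48 and 2.15. By RefSeq 13 members overlap another gene, among them RALFL33, PDF1A and PDF1B, and the signals of such pairs are uncertain where the probes lie in the overlap.

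A large share of the members had exactly the same value on both replicate 1 arrays. This held for 62 of 103 members (60.2%), against 44.4% of named genes and 31.8% of all rows. In named genes below the 25th percentile the share was 71.6%, and in members of that range 66.3%. By family it held for 43 of 63 LCR genes, 6 of 12 SCRL genes, 9 of 18 RALFL genes and 4 of 10 PDF genes. The median size of the difference between same-numbered arrays over all members was accordingly 0.00 in replicate 1, 0.24 in replicate 2 and 0.27 in replicate 3. The median difference in all 4 families was 0.00 in replicate 1, was negative in replicate 2 (-0.21 to -0.10), and lay between -0.004 and 0.12 in replicate 3. Over named genes below the 25th percentile it was -0.04 in replicate 2 and 0.03 in replicate 3, with a median size of 0.24 in both. Over all named genes the median difference was -0.02 in replicate 2 and -0.002 in replicate 3. An equal pair adds 0 to the difference of a gene, which is then smaller in size than in replicates 2 and 3 alone. For LCR83 it was -0.45, against -0.68 in replicates 2 and 3. How the equal values arose was not tested. SCRL26, RALFL34 and RALFL33 had none, and their replicate 1 pairs gave -0.82, -0.80 and -0.32.

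**Figure D4:**
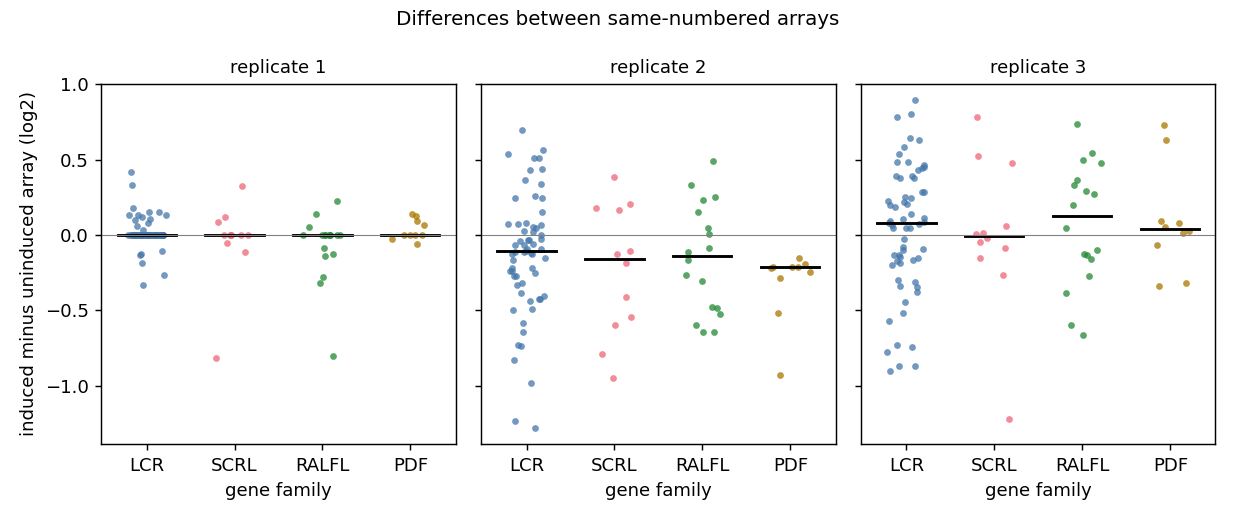
Induced minus uninduced difference (log2) between same-numbered arrays for each of the 103 genes, in a panel per replicate number, by family, with black bars at the family medians. Many genes lie at exactly 0 in replicate 1, where SCRL26 and RALFL34 are the lowest points, and the medians are below 0 in replicate 2 in all 4 families. The replicate 2 median of all named genes, not drawn, is also below 0 (-0.02).

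Genes of the pathways around these peptides gave 0 calls. Of 50 such genes 26 were measured by a row that names 1 gene. Of these 13 lay higher and 13 lower in induced cells, with 1 at an unadjusted p under 0.05. Among the named genes of the array 1.13% were called, and 4.71% lay lower and 4.01% higher by unadjusted p. The count of 1 takes both directions together, and 26 genes are too few to set either count apart from the background. Of 14 receptor kinases of the FERONIA family 11 were measured, with a median difference of 0.04, and 0 passed. FERONIA itself (FER), the main RALF receptor and chosen after its values were seen, gave 10.43, 10.21 and 10.11 in induced cells, against 10.43, 10.23 and 10.12 in uninduced cells. Its groups overlapped throughout, with a difference of -0.01 ± 0.14 (SE; 95% interval -0.34 to 0.33). THE1, the receptor of RALF34 and likewise chosen after its values were seen, differed by 0.06 ± 0.13 from an uninduced mean of 6.93.

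Of 11 loci listed as leucine-rich repeat extensins, wall proteins that bind RALF peptides, 8 were measured and 0 passed, 2 lying higher and 6 lower. AT2G15880 had the smallest p, with 5.39, 5.29 and 5.16 in induced cells, against 4.71, 4.31 and 4.65 in uninduced cells, and a difference of 0.72 ± 0.15 (SE, limma adjusted p = 0.115). Its groups lay apart, and it is the only 1 of the 26 at an unadjusted p under 0.05 (0.00246). In the other direction, AT3G22800 of the same list differed by -0.32 ± 0.14 (adjusted p = 0.638), with its highest induced value of 6.888 below its lowest uninduced value of 6.913. AT4G18670, chosen after its values were seen, differed by -0.50 ± 0.23 (adjusted p = 0.678), with 8.637 below 8.644. The protease S1P, which cleaves RALF precursors, differed by 0.06 ± 0.10 from an uninduced mean of 7.98, and the coreceptor gene LRE by -0.03 ± 0.15. EIN3, an activator of the ethylene branch, was the only 1 of 8 listed defensin regulators with a named row, at 10.97 in both groups (difference -0.0012 ± 0.13). Of 8 listed receptors of cysteine-rich peptides 3 were measured, and AT4G08850 had the smallest p, with a difference of -0.24 ± 0.14 (adjusted p = 0.849).

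For the series as a whole, array medians lay between 5.80 and 5.95. The labelled cell type could be checked against few markers: of 4 genes of dividing cells 1 was measured, AUR1, at 10.92 in induced and 11.34 in uninduced cells (limma adjusted p = 0.175). Of 4 root hair genes 2 were measured, with uninduced means of 3.94 and 4.20, and of 4 leaf mesophyll and 7 seed storage genes 0 had a named row. No row names ATHB8, and its own level was not analysed here.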

How the data were processed

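Total RNA of 6 samples (3 induced, 3 uninduced) was labelled and hybridised to a whole-transcript GeneChip, per the labels. The deposited values are log2 signals. The submitters' processing notes name Expression Console 1.3 of Affymetrix; background correction, normalization, summarization and genome build are not given in the sources used here. The log2 values were used as deposited. Genes come from the platform's annotation, and a single row stands for each gene (the highest mean over 6 arrays). All 103 members were found in RefSeq (TAIR10.1), 100 by gene ID and 3 by symbol, which served for names and gene order. No member shared all 6 values with another row. No sequence is printed, since no sequence table was used here.

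Differences came from limma 3.58.1 in R 4.3.3 (lmFit, eBayes, two-sided, Benjamini-Hochberg over 38408 rows, threshold 0.05, no filter, no block). The fit was also run on simulated data with independent noise on each array. Such noise has neither the correlation between same-numbered arrays nor the equal values of the real data. An exact permutation test of 3 against 3 cannot go below p = 0.10. Nothing says that replicates are separate cultures, so p-values may measure technical spread only, and the number of arrays limits precision. After the group means were subtracted, same-numbered arrays correlated at 0.633, 0.268 and 0.248 over rows, all above 0.1. The 0.633 of replicate 1 includes the 31.8% of rows with equal values in that pair. The numbers were taken to pair the arrays, and a replicate block was fitted as an alternative. A p-value given here is from the fit without a block unless another fit is named. Members, lists and alternatives were chosen with earlier results of these data known. Named genes are, per family, the 4 smallest p, the 3 highest and the lowest uninduced mean, and per list the 2 smallest p. Lists of pathway genes were drawn up by locus. Figures used matplotlib 3.10.9.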

Additional observations from a re-analysis of the deposited data

How the results depend on the processing

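The count of 0 peptide genes called became 1 (SCRL26) over rows at or above the 25th percentile, with the trended variance prior, over rows that name 1 gene, over distinct rows and at a threshold of 0.10, and 2 (SCRL26 and RALFL34) over rows at or above the median and with a block that sets replicate 1 apart. It was 0 with the replicate block, both other normalizations, replicates 2 and 3 alone and without each array in turn. By unadjusted p (under 0.05), the replicate block gave 4 genes below and 0 above, the same counts as without it, but LCR83 (0.0697 in limma) dropped out and RALFL29 (0.0335) came in. The 4 lower genes became 2 over rows at or above the median (6 members left) and with the trended prior, 8 in replicates 2 and 3 alone, and 2 to 8 without single arrays (8 without induced replicate 1, 7 without uninduced replicate 1, 2 without induced replicate 2 or 3 or uninduced replicate 2). The 0 higher genes became 2 in replicates 2 and 3 alone, and 0 to 1 without single arrays. Shares over all named genes were computed for the main fit only, so these counts cannot be set against shifts of the whole array. The cause of the shifts was not tested.

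The 25th percentile and median filters of these fits use the mean over all 6 arrays. The 25th percentile filter left 20 members, whereas 23 lie at or above the 25th percentile of uninduced means used for levels above. Family medians of the difference moved by more than their spread between replicates mainly where members were dropped. Over rows at or above the 25th percentile they were -0.56 for SCRL (2 genes left) and -0.14 for RALFL (7 left), over rows at or above the median -0.99 for SCRL (1 left) and -0.16 for RALFL (3 left), and over genes without equal replicate 1 values -0.11 for SCRL (6 left) and -0.14 for RALFL (9 left). Leaving out single arrays gave -0.07 to 0.05 for SCRL and -0.10 to 0.0511 for RALFL. Uninduced medians moved to 4.34 for LCR, 7.89 for SCRL, 5.38 for RALFL and 5.99 for PDF with the 25th percentile filter. With the median filter, which left 0 LCR genes, they moved to 10.65 for SCRL, 7.63 for RALFL and 6.59 for PDF. The PDF value of 5.99 is that of the deformylase PDF1A, and that of 6.59 comes from the 2 peptide deformylases alone. Without genes of equal replicate 1 values the medians moved to 2.58 for LCR, 2.56 for SCRL and 4.87 for RALFL. In replicates 2 and 3 alone they moved to 2.75 for SCRL, 3.51 for RALFL and 3.23 for PDF. Leaving out single arrays gave uninduced medians of 2.68 to 2.78 for SCRL, 3.27 to 3.51 for RALFL and 2.96 to 3.23 for PDF. Of the 28 named members, only SCRL26 and RALFL34 passed in any fit. Leaving out the 2 peptide deformylases only took them out of the counts without a new fit, so it could not change a call. Most members' signals are low and no background level was analysed, so differences among them are the least certain values here.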
